A study of Mus musculus with 3 samples.

Results

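The small nucleolar RNA (snoRNA) host genes Gas5, Snhg1, Snhg3, Snhg5, Snhg6, Snhg8, Snhg12, Snhg15, Snhg17 and Zfas1 were examined as a group of 10 genes among 55536 annotated genes. They were chosen by name as noncoding transcription units that carry snoRNAs inside their introns, and each was found by its identifier in the gene tables and in both sets of transcript tables, with 90 annotated isoforms in all. The libraries were total RNA-seq of the chromatin fraction of primary bone marrow-derived macrophages from C57BL/6J mice, after depletion of ribosomal RNA. All cells had received 100 ng/ml Lipid A, the lipid part of lipopolysaccharide that activates Toll-like receptor 4, for 12 h, were washed free of it for 12 h, and were then given 100 ng/ml Lipid A again for 20 min. There was 1 group of 3 libraries, labelled biological replicates 1, 2 and 3. Other conditions and other cell fractions were not analysed here, and no comparison between conditions was made. The 3 libraries carry the same donor entry, and their spread may therefore be partly technical. Sex and age were not recorded in the labels.

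SnoRNAs are short RNAs of the nucleolus that guide chemical changes of ribosomal RNA. Box C/D snoRNAs guide 2′-O-methylation and box H/ACA snoRNAs guide pseudouridylation. In mammals most are cut out of introns of a host transcript after splicing and trimmed from both ends, so the intron carries the product. The spliced exons of noncoding hosts usually hold no long reading frame, and several are known to be short-lived in the cytoplasm because translation of their short frames exposes them to nonsense-mediated decay. RNA bound to chromatin is rich in transcripts still being made or spliced, so unspliced host RNA and its intronic snoRNA sequence are both part of what such libraries contain.

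Expected counts (fractional where a read fitted several features) summed to 13953780, 24222661 and 16571228 in replicates 1, 2 and 3, and RNA input was given as 1 µg, 250 ng and 500 ng. Replicate 2 therefore had the highest depth and the smallest input. All 7 macrophage markers, among them Adgre1 with 334 ± 54.4 TPM and Lyz2 with 185 ± 53.5 TPM, were at 1 TPM or more in every library. TPM is the transcript level scaled for length and for the total of the library, and errors are SD over n = 3 libraries throughout. None of the 17 markers of T cells, B cells, neutrophils, erythroid cells, mast cells, fibroblasts and endothelium reached that level in every library, and the summed TPM of each of these lists was at most 1.27, from the neutrophil list in replicate 1. Cxcr2 and Cpa3 were listed at 0 in all 3 libraries.

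Inside the 10 hosts lay 36 annotated snoRNA genes of 60 to 205 bases on the host's strand. Gas5 held 10, Snhg1 held 8, Snhg12 held 5, Snhg17 and Zfas1 held 3 each, Snhg3 and Snhg5 held 2 each, and Snhg6, Snhg8 and Snhg15 held 1 each. Snord80 in Gas5 and Snora16a in Snhg12 each have 2 overlapping entries, counted separately here, so 34 distinct symbols stand for the 36 snoRNA genes. Every one of them lay within an intron of at least 1 host isoform, and 33 also lay whole within an exon of another. The sequences of the 6 that reached 100 estimated counts in at least 1 library are shown because the snoRNA results turn on them. They are GENCODE M21 transcript sequences on mm10, written 5′ to 3′ as DNA, with the C box (TGATGA) and D box (CTGA) of box C/D snoRNAs or the ACA box of box H/ACA snoRNAs in capitals.
Gm22357, in Gas5, chr1:161036057-161036139, plus strand: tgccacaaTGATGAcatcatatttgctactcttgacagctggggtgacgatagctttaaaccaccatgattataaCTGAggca
Snord47, in Gas5, chr1:161038082-161038158, plus strand: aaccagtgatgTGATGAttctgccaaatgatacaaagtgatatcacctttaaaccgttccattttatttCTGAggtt
Snord22, in Snhg1, chr19:8725866-8725991, plus strand: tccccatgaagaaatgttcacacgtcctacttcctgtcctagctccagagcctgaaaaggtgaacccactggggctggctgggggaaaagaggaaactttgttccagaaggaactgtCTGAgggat
Snord99, in Snhg12, chr4:132310691-132310764, plus strand: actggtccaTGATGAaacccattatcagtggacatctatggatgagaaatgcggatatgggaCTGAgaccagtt
Snora73b, in Snhg3, chr4:132352322-132352526, minus strand: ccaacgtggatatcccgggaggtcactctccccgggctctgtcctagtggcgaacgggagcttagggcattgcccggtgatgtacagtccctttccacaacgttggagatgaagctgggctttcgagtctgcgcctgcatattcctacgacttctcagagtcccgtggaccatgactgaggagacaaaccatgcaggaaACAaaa
Snora73a, in Snhg3, chr4:132352775-132352979, minus strand: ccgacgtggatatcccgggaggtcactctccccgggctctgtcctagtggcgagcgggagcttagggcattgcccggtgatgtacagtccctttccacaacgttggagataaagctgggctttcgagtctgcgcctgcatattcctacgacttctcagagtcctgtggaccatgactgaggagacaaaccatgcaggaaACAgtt
Of the 24 hosted snoRNA genes under 100 bases that are not named as box H/ACA snoRNAs, 21 had the C box letters among the first 20 positions and all 24 had the D box letters within the last 20 bases. In Snord22 only the D box letters were found. Snora73a and Snora73b, which take part in the cleavage steps that release 18S ribosomal RNA rather than in pseudouridylation, were identical at 198 of 205 aligned positions (96.6%). Reads from the stretches they share cannot be assigned to either, so the split between their counts is uncertain.

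Gas5 and Zfas1 were far above the other hosts. Gas5 (chr1:161034422-161038539, plus strand, mm10), first described as a transcript that accumulates when growth stops, had 193, 185 and 165 TPM in replicates 1, 2 and 3, with a mean of 181 ± 14.5 TPM. Zfas1 (chr2:167062934-167065862, plus strand), transcribed away from the start of the Znfx1 gene, had 120.0, 96.0 and 83.7 TPM, with a mean of 99.9 ± 18.5 TPM. The ranges of these 2 genes did not overlap, and Gas5 was higher than Zfas1 in all 3 libraries, by 1.81-fold on the means. Among 10155 long noncoding genes, ranked by mean TPM, Gas5 stood at 11 and Zfas1 at 20.

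Snhg1 and Snhg8 came next. Snhg1 (chr19:8723475-8726443, plus strand), the host of Snord22 and of 7 shorter snoRNA genes, had 44.3, 42.6 and 34.5 TPM, a mean of 40.5 ± 5.24 TPM and rank 52 among long noncoding genes. Snhg8 (chr3:123507552-123508404, minus strand), the shortest of the 10 with a span of 853 bases and host of the box H/ACA snoRNA Snora24, had 22.3, 25.5 and 19.0 TPM, with a mean of 22.2 ± 3.25 TPM. Each of these was above the next host in all 3 libraries, without overlap of ranges.

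Snhg17, Snhg15, Snhg12 and Snhg5 lay close together, and the ranges of neighbours in this order overlapped, although Snhg12 was above Snhg5 in all 3 libraries. Snhg17 (chr2:158353700-158361580, minus strand), the longest of the 10 with a span of 7881 bases, had 16.2, 15.0 and 15.3 TPM. Snhg15 (chr11:6525591-6528760, minus strand), the host of Snora9, had 9.72, 14.3 and 16.9 TPM, the widest relative spread of the 10 with a coefficient of variation of 26.7%. Its replicate 1 was below all libraries of Snhg17, while its replicate 3 was above all of them. Snhg12 (chr4:132308623-132311024, plus strand), which carries Snora16a, Snora44, Snora61 and Snord99, had 13.2, 13.3 and 12.3 TPM. Snhg5 (chr9:88521050-88522929, minus strand), the host of Snord50a and Snord50b, had 12.7, 10.6 and 12.2 TPM. The means of these 4 genes were 15.5 ± 0.627, 13.7 ± 3.65, 12.9 ± 0.579 and 11.8 ± 1.09 TPM.

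Snhg6 and Snhg3 were the lowest. Snhg6 (chr1:9941959-9944118, minus strand), the host of Snord87, had 9.20, 8.13 and 8.81 TPM, with a mean of 8.71 ± 0.542 TPM. Snhg3 (chr4:132348014-132353686, minus strand), the host of Snora73a and Snora73b, had 6.46, 5.25 and 4.50 TPM, with a mean of 5.40 ± 0.989 TPM from only 20.2, 35.5 and 16.5 expected counts. The 3 libraries of Snhg3 lay below all libraries of Snhg6.

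**Figure D1:**
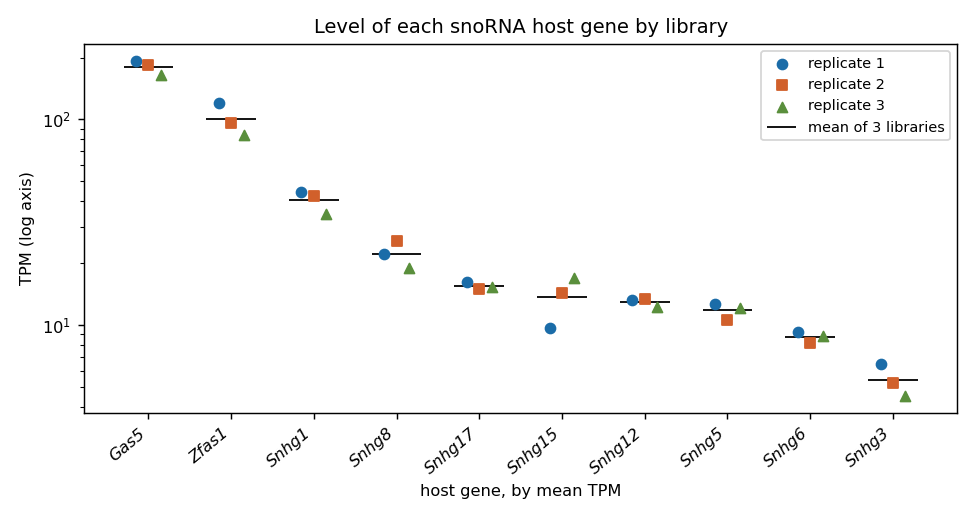
TPM of each snoRNA host gene (log axis) in replicates 1, 2 and 3, ordered by the mean, which the horizontal lines show. Gas5 and Zfas1 stand above the rest at 181 and 99.9 TPM, and the points of Snhg17, Snhg15, Snhg12 and Snhg5 lie at like heights, with replicate 1 of Snhg15 apart at 9.72 TPM.

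All 10 hosts were at 1 TPM or more in every library, a level reached by 13.3% of 10155 long noncoding genes and 24.1% of all 55536 genes. Their median mean level was 14.6 TPM, against 4.19 TPM over the 1352 long noncoding genes and 9.42 TPM over the 13400 genes that reached that level. In the second transcript table, where isoform values were summed per gene, all 10 also reached 1 TPM, and the median was 17.5 TPM. The 3 highest and the lowest host were the same there, with Gas5 at 126 ± 14.8 TPM, Zfas1 at 74.1 ± 13.6 TPM, Snhg1 at 33.7 ± 2.98 TPM and Snhg3 at 4.30 ± 1.21 TPM, but the order within the middle differed. Snhg15 stood above Snhg17 at 18.3 ± 3.88 TPM, and Snhg12 stood below Snhg5 and Snhg6 at 9.37 ± 0.761 TPM. Intron reads enter a host's level only through annotated isoforms that hold them. Gas5 has 20 isoforms annotated as retained intron, while Snhg3, Snhg6, Snhg12 and Snhg15 have 0, and the part of this in the order of levels was not tested. Chromatin RNA amount per cell and the number of cells giving it cannot be told apart in such samples.

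Over 50% of the TPM of annotated genes in each library belonged to small or structural noncoding gene classes. These classes (snoRNA, snRNA, miRNA, nuclear and mitochondrial ribosomal RNA and similar) held 53.6, 63.5 and 54.6% of it in replicates 1, 2 and 3. They were taken by annotated type and not by length. Many of their genes, such as snoRNA genes, are shorter than or close to the fragment length and so have an effective length near 0, but not all are short. The median TPM of genes at 1 TPM or more in every library was 10.2, 7.91 and 9.87. A host's raw TPM in replicate 2 is therefore not on the same scale as in the other 2 libraries, and variation between libraries is given below as log2 CPM (counts scaled to library size, not length, with TMM factors of 1.03, 0.989 and 0.984, prior count 2).

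Of the 10 hosts, 9 averaged 50 counts or more and entered the comparison of libraries, and Snhg3 did not. All 9 were highest in replicate 2, against 36.1% of 11632 genes. In Snhg5 and Snhg6 the spread was 0.931 and 0.954 times that of counting error alone, so their order of libraries is uncertain. In Snhg15 replicates 2 and 3 differed by less than its counting SD of 0.168. Gas5 had log2 CPM values of 7.14, 7.46 and 6.84 in replicates 1, 2 and 3, and Snhg1 had 5.55, 5.96 and 5.38. Snhg8 had 3.07, 3.50 and 2.86. In these 3 genes the order was the same, replicate 2 above replicate 1 above replicate 3, and the highest library exceeded the lowest by 1.53-fold in Gas5 and 1.57-fold in Snhg8. Zfas1 had 6.50, 6.54 and 5.95, so its replicates 1 and 2 were nearly level and replicate 3 stood apart. Snhg15 had the reverse, with 1.77 in replicate 1 below 2.54 and 2.47 in replicates 2 and 3, a range of 1.71-fold. Snhg12, with 3.32, 3.88 and 3.36, and Snhg17, with 5.09, 5.53 and 5.23, were lowest in replicate 1, while Snhg5 and Snhg6 were lowest in replicate 3, as were Gas5, Snhg1, Snhg8 and Zfas1.

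The 9 hosts were also highest in replicate 2 in the second transcript table and when TPM was divided by the library's median. On TPM as deposited only Snhg8 and Snhg12 were highest there, and only 9.17% of the 11632 genes were. With library totals and no TMM factor 8 of 9 were, without Zfas1. The summed CPM of all annotated snoRNA genes was likewise highest in replicate 2, at 3207, against 2144 in replicate 1 and 1684 in replicate 3. Depth, RNA input and this library cannot be told apart, and their part in the result was not tested.

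**Figure D2:**
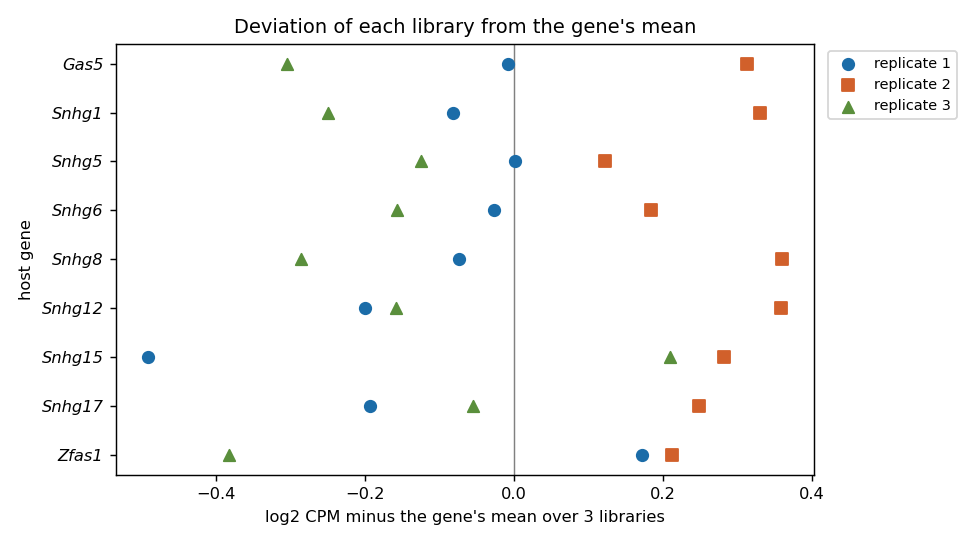
Log2 CPM of each of the 9 host genes that averaged 50 counts or more, minus the gene's mean over the 3 libraries (x axis), with a point per library. Replicate 2 lies rightmost in all 9 rows, and Snhg15 and Zfas1 differ from the others in where replicates 1 and 3 lie.

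The median SD of log2 CPM over the 9 hosts was 0.31, against 0.25 over 851 long noncoding genes and 0.20 over 11632 genes. Over the 9627 genes within the hosts' own range of mean log2 CPM the median was 0.19. The SD was highest for Snhg15, at 0.43, and lowest for Snhg5, at 0.12. Without replicate 2 the median SD of the hosts was 0.12, and the SD was lower than over all 3 libraries for 7 of 9 hosts. The exceptions were Snhg15 and Zfas1, with 0.49 and 0.39. Replicate 2 was the highest library of all 9, so leaving it out tends to lower their SD. The same was not computed for other genes, and the drop is not a trait of the hosts. The SD of Snhg15 was 0.05 without replicate 1, so its place as the highest rested on that library. Counting error alone would give an SD of 0.13 for Snhg5 and 0.18 for Snhg6, about what was observed (0.12 and 0.17), and no spread beyond counting was detectable for these 2 genes at this depth. For Gas5 and Zfas1 the observed SDs of 0.31 and 0.33 were 10.4 and 8.44 times the counting SD. Without replicate 3 the SD of Zfas1 was 0.03, below its counting SD of 0.04, while that of Gas5 was 0.21 to 0.44 on leaving out any 1 library.

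Among the 5 genes outside the group whose centred log2 CPM lay nearest to the median profile of the 9 hosts were Cep192, Atg4d, Fer and Gm45515, by Euclidean distance over the 3 libraries among 11623 genes. The hosts' median profile was -0.09, 0.27 and -0.18 in replicates 1, 2 and 3, and that of Cep192 was -0.09, 0.26 and -0.18. Snhg15 and Zfas1 were the hosts farthest from the profile of their own group, at distances of 0.557 and 0.339, and 8152 and 3975 other genes were nearer to it. With 3 libraries many genes share any such profile, and the ranking is a description.

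By the first transcript table, the larger part of the TPM of 6 of the 10 hosts was assigned to isoforms annotated as retained intron. Of the 10 hosts, 6 have isoforms annotated as retained intron, and these took 89.6 ± 3.54% of the TPM of Gas5, 88.2 ± 2.93% of Zfas1, 86.5 ± 3.51% of Snhg1, 73.5 ± 17.3% of Snhg5, 63.3 ± 4.70% of Snhg8 and 52.1 ± 6.38% of Snhg17. Thus 6 of 6 were above 50%, as were 45.5% of 6632 genes with such an isoform at 1 TPM or more. The median of the 6 hosts was 80.0%, against 54.6% over 100 long noncoding genes and 47.0% over the 6632 genes. By the second transcript table, 5 of the 6 hosts were above 50%, against 2859 of the 6632 genes, and Snhg17 was at 36.0 ± 5.11%. Over all 10 hosts the median there was 45.1%. Such isoforms are 20 of the 25 of Gas5, 14 of 18 of Snhg1 and 4 of 5 of Zfas1. They are 3 of 6 in Snhg5, 1 of 3 in Snhg8 and 2 of 9 in Snhg17, and the shares were not scaled for these numbers.

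For Snhg3, Snhg6, Snhg12 and Snhg15 no isoform is annotated as retained intron, so a share of 0 for them states the annotation only. A measure that does not depend on that label was added after the values had been seen, the share of TPM in isoforms with a whole snoRNA gene inside an exon. Snhg12 then came highest, at 86.3 ± 6.67%, with 8 of its 10 isoforms, all annotated as lincRNA, holding a snoRNA. Gas5 had 78.1 ± 4.29%, Snhg1 73.9 ± 3.40%, Snhg17 72.6 ± 5.02% and Zfas1 71.4 ± 3.23%. Snhg8 had 63.3 ± 4.70%, Snhg5 53.1 ± 12.0% and Snhg15 31.2 ± 8.70%. No isoform of Snhg3 or Snhg6 holds a whole snoRNA in an exon. The median over the 10 was 67.3%, and 7 of 10 were above 50% in both transcript tables. This share was not computed for other genes, so whether it is high for these libraries is not known.

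**Figure D3:**
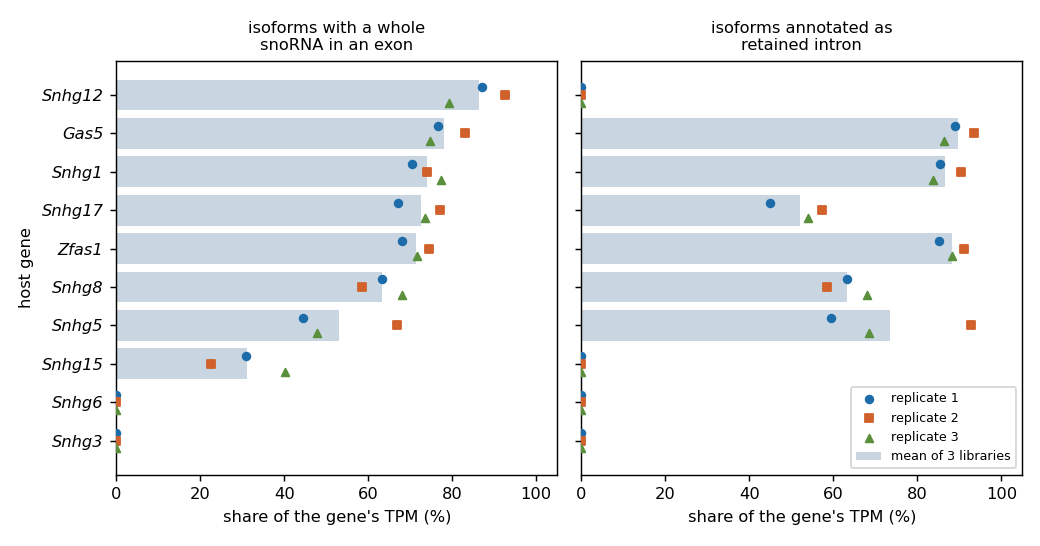
Share of each host gene's TPM (%) in isoforms that hold a whole snoRNA gene in an exon (left) and in isoforms annotated as retained intron (right), with bars for the mean of 3 libraries and points for replicates 1, 2 and 3. Snhg12 leads on the left with 86.3% and has none on the right, where no such isoform of it is annotated.

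Gas5 had 25 annotated isoforms, 20 of them with a retained intron, and no isoform dominated. Its leading isoform was Gas5-218, of 2556 bases and 4 exons, which starts 744 bases into the annotated gene, runs unspliced across 6 snoRNA genes and took 16.3, 18.2 and 15.3% of Gas5 TPM in replicates 1, 2 and 3. Gas5-222, unspliced across 3 of the same snoRNA genes, followed with 11.9 ± 1.17%, and Gas5-205, which ends in an exon that holds Snord78, had 11.6 ± 3.82%. The fully spliced Gas5-224, with 12 exons in 502 bases and no snoRNA, had 9.38, 6.33 and 12.1%. Replicate 2, the highest for Gas5-218, was the lowest for Gas5-224.

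**Figure D4:**
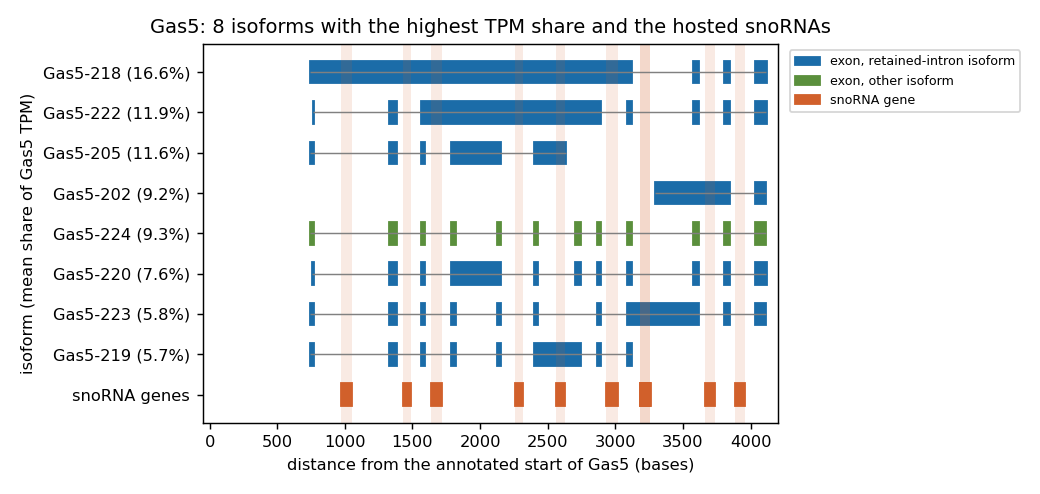
Exons (boxes) and introns (lines) of the 8 Gas5 isoforms with the highest mean share of Gas5 TPM, drawn by distance from the annotated gene start in bases, with the hosted snoRNA genes in the bottom row and shaded through the plot. Gas5-218 runs unspliced over 6 snoRNA genes, while every snoRNA gene lies in an intron of the 12-exon isoform Gas5-224.

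Among the other hosts, Snhg1, Zfas1, Snhg17, Snhg8 and Snhg5 were also led by isoforms annotated as retained intron. Snhg1-215, with 2 exons in 2728 bases and 7 snoRNA genes in them, took 31.5 ± 3.54% of Snhg1. Zfas1-204, with 2 exons in 2302 bases and 2 snoRNA genes, took 28.1 ± 1.81% of Zfas1, although in replicate 3 Zfas1-202 was above it, at 30.3% against 26.3%. Snhg17-204 took 50.5 ± 6.81% of Snhg17, with 2 snoRNA genes in 3896 bases. Snhg8-202, a single exon across Snora24, took 63.3 ± 4.70%, and the spliced 3-exon Snhg8-201 took 28.4 ± 3.62%. Snhg5-204, whose exon holds Snord50a, took 33.6 ± 2.95%.

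In the remaining hosts the leader varied more between libraries. Snhg12-208, holding Snora16a, had 35.6, 15.2 and 31.4% of Snhg12, and in replicate 2 it was not the first. Snhg3-204 had 66.7, 29.0 and 55.3% of Snhg3, and in replicate 2 Snhg3-202 was above it at 55.5%. This change of leader rests on few expected counts, 11.1, 7.78 and 6.93 for Snhg3-204 and 9.12, 25.5 and 9.58 for Snhg3-202. Snhg15-202 had 58.1, 67.0 and 44.8% of Snhg15 and starts 2030 bases into the gene, downstream of Snora9, which lies in an exon of Snhg15-203. Snhg6-205 had 44.1, 64.1 and 52.8% of Snhg6. Over the 10 hosts the median share of the leading isoform was 42.0%, and the leader was the same isoform in both transcript tables for all 10.

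Below the leader the 2 transcript tables could differ widely for single isoforms. The 10-exon isoform Snhg1-211 had 12.3 ± 5.67% of Snhg1 in the first table and 1.00 ± 0.868% in the second, while the 9-exon Snhg1-207 had 1.27 ± 2.21% in the first and 27.1 ± 4.31% in the second. The 2-exon isoform Snhg17-202, of 342 bases, was listed at 0 in the first table and had 20.6 ± 5.20% in the second. Gas5-215, annotated as retained intron, had 0.159 ± 0.275% in the first and 7.51 ± 1.85% in the second. For these isoforms the tables differed by more than the spread between libraries. For others they did not, such as Gas5-224, with 9.26 ± 2.87% in the first and 7.63 ± 3.14% in the second.

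The hosted snoRNAs themselves were measured unevenly. In the gene tables, 26 of 36 were at 0 counts in all libraries, and 25 of 36 had an effective length of 0 there in every library, 24 of them among those at 0. By the second transcript table, 16 of 36 were at 0. A value of 0 for these short genes is thus set in part by how length was treated, and the deposited TPM of Snord22, 21305 and 34491 in replicates 1 and 3 but 0 in replicate 2, cannot be used as a level. Estimated counts of the second table are given instead.

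Snora73b and Snora73a, shown above, were the most abundant by count. Snora73b had 1201, 5909 and 1391 estimated counts in replicates 1, 2 and 3, and Snora73a had 946, 5864 and 1179. Together they reached 98.3, 282 and 90.5 CPM, against 1.30, 1.16 and 0.802 CPM for their host Snhg3. The host with the lowest level thus held the snoRNA genes with the highest counts. At 205 bases these were also the longest of the 36. The labels give a library size range that lies above the length of every hosted snoRNA gene. The part of length in these counts was not tested. No Snhg3 isoform holds either snoRNA gene whole in an exon. Whether unspliced Snhg3 RNA across them was counted for the snoRNA genes and not for Snhg3 was not tested. Mature snoRNA cannot be told apart from it here. Snhg3 itself also shares 135 exon bases with Rcc1 on the same strand and 705 of its 986 exon bases with Gm17300 on the opposite strand, and since the strand setting of the counting is not given, its own level is uncertain.

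Snord22 came next, with 473, 3219 and 791 estimated counts. Its CPM was 0.534, 1.57 and 0.792 times that of its host Snhg1. In Gas5, Gm22357 had 118, 448 and 159 estimated counts and Snord47 had 35.5, 152 and 39.3, and the 10 snoRNA genes of Gas5 summed to 7.05, 14.5 and 6.99 CPM, against 98.1, 119 and 76.3 CPM for Gas5. In Snhg12, Snord99 had 46.1, 107 and 55.1 estimated counts. Replicate 2 was highest for each of these, in CPM as well. Of the hosted snoRNA genes with at least 10 counts in the second table, 12 of 14 were highest in replicate 2, and of all such snoRNA genes 191 of 360 were. In the gene tables these counts were 6 of 6 and 59 of 66.

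The other snoRNA genes were low. The single snoRNA gene of Snhg8, Snora24, was at 0 in the second table, and those of Zfas1 together reached at most 0.736 CPM, against 73.8 CPM for Zfas1 in the same library. Reads across a snoRNA inside a retained intron can be assigned to the host isoform or to the snoRNA gene, so these values do not separate mature snoRNA from host RNA.

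**Figure D5:**
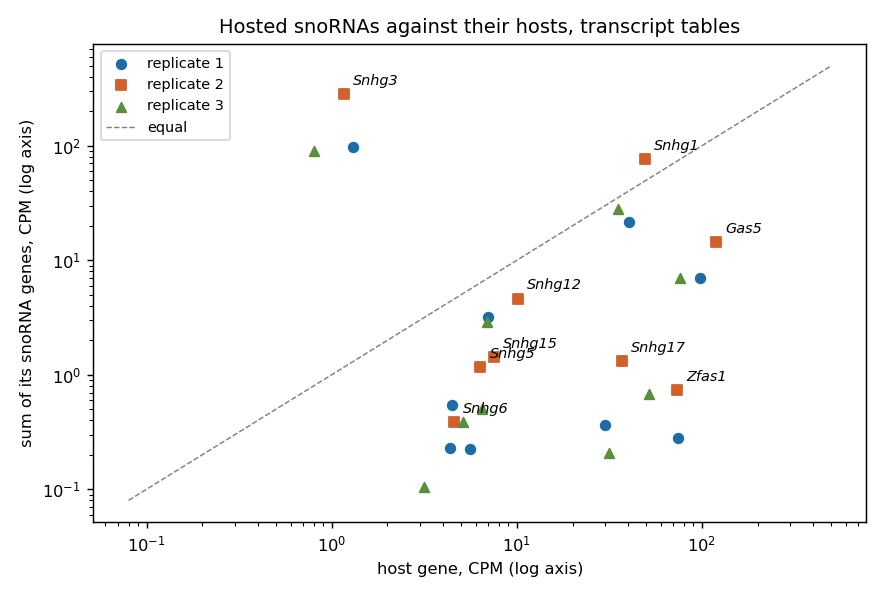
Summed CPM of the snoRNA genes of each host (y, log axis) against the CPM of the host (x, log axis) in the second transcript table, with a point per library and the line of equality. Snhg3 lies far above the line with 282 CPM of snoRNAs at 1.16 CPM of host in replicate 2, and Snhg8, whose snoRNA gene is at 0, is not drawn.

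Neighbouring genes bear on other levels too. Zfas1 shares 82 exon bases with Znfx1, which lies on the opposite strand and had 171 ± 31.4 TPM, and Snhg6 shares 127 with Mcmdc2 on the opposite strand, at 2.38 ± 1.29 TPM. On the same strand, Zfas1 shares 189 exon bases with Gm27494, listed at 0, and Snhg17 shares 132 with an entry named Gm23925 and annotated as lincRNA. That entry was listed at 56.6, 1218 and 159.5 TPM. A hosted snoRNA gene of Snhg17, 132 bases long, carries the same symbol. Reads may be split between these entries, and the TPM was not taken as a level. Gas5 overlaps the span of Zbtb37 on the opposite strand with 0 shared exon bases. The expected counts of Gas5, Zfas1 and Snhg6 were whole numbers in all 3 libraries, while those of the other 7 hosts were fractional in at least 1.

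The start regions were compared for the pyrimidine-rich start known as the 5′ terminal oligopyrimidine motif, which is found in many transcripts of the translation machinery and in many snoRNA hosts. RefSeq start windows (build GRCm38.p6) matched 9 of the 10 hosts, without Snhg6. Shown are 20 bases before and 20 from the start on, for the 3 hosts with a match and for Zfas1 and Snhg1, the 2 most abundant hosts without one, with the matching run in capitals.
Gas5, chr1:161035146-161035185, plus strand: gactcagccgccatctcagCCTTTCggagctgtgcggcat
Snhg8, chr3:123508317-123508356, minus strand: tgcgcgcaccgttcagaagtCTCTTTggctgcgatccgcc
Snhg12, chr4:132308658-132308697, plus strand: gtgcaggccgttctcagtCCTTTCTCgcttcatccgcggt
Zfas1, chr2:167062914-167062953, plus strand: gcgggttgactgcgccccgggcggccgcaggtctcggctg
Snhg1, chr19:8723467-8723506, plus strand: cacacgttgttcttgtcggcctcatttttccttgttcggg
A C followed by at least 5 pyrimidines on the sense strand, beginning within 20 bases of the start, was present in 3 of 9 hosts and in 32.5% of 32851 windows. In Gas5, Snhg8 and Snhg12 the run lay at the start itself. Within the window from 250 bases before to 50 after the start, CACGTG, the E-box, was present in 1 of 9 hosts, Snhg15, and in 7.15% of all windows. TATAAA on either strand was present in Snhg1, Snhg3, Snhg5 and Snhg8, 4 of 9 hosts, and in 13.6% of all windows. These matches are descriptions of letters and not of binding.

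Other snoRNA hosts and the machinery that handles their RNA were present in the same libraries. Of 8 further noncoding hosts 7 were found, without Snhg7, and 3 of them were at 1 TPM or more in every library, led by Snhg20 at 27.8 ± 8.91 TPM and Snhg14 at 19.0 ± 2.53 TPM. Snhg18 was listed at 0. All 22 protein-coding hosts were at 1 TPM or more, with Eif4a2 and Eif4a1, which encode translation initiation helicases, highest at 376 ± 12.4 and 227 ± 25.8 TPM, and Rpl23a, a ribosomal protein gene, lowest at 6.72 ± 2.05 TPM. Their median was 36.4 TPM, above the 14.6 TPM of the 10 noncoding hosts. Of the 20 with enough counts 15 were highest in replicate 2, against 36.1% of all genes with enough counts. Of the 19 with a retained-intron isoform 15 had over 50% of TPM in such isoforms, against 45.5% of all genes with one, with a median of 62.7%.

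Of 18 genes for snoRNP proteins and their assembly factors, 17 were at 1 TPM or more in every library. Nop56 and Nop58, core proteins of box C/D particles, were highest at 33.6 ± 5.82 and 17.0 ± 5.09 TPM, and Naf1, an assembly factor of box H/ACA particles, was lowest at 1.26 ± 0.494 TPM, with 0.810 TPM in replicate 2. Of the 14 genes of this list with enough counts, 5 were highest in replicate 2 and 7 in replicate 3. Over all genes with enough counts these shares were 36.1% and 27.4%, so the count for replicate 2 was near that share. All 14 genes of nonsense-mediated decay were at 1 TPM or more. Smg1, the kinase of the pathway, and Smg5 were highest at 166 ± 4.83 and 42.7 ± 5.64 TPM, and Smg8 was lowest at 2.94 ± 0.531 TPM. Of the 13 genes of this list with enough counts, 7 were highest in replicate 2, against 36.1% of all such genes. In log2 CPM their SDs had a median of 0.12, and those of the 9 hosts 0.31.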

How the data were processed

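Total RNA-seq of 3 chromatin libraries was used, on genome mm10 and annotation M21, per the notes deposited with each library. The authors deposited gene and transcript tables with expected counts and TPM, and the first transcript tables also give each isoform's percent of its gene's TPM, per the file headers. The second transcript tables give the authors' estimated counts and TPM. The column names match RSEM and kallisto output, but the sources used here name no program. Spike-ins, phiX and entries with only a number stayed out of library sizes.

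Here expected counts were rounded and scaled by TMM (edgeR 4.0.16, prior count 2, genes averaging 50 counts or more), and the SD of log2 CPM was checked on simulated data. A count of 0 allows up to 3 counts, 0.220, 0.124 and 0.182 CPM in replicates 1, 2 and 3. Floors cover counting error only. With 1 group no test was run. Members and lists were chosen with earlier results of these data known. Named were all 10 members, leading isoforms, others at 10% of TPM or more where the text turns on them, snoRNA genes inside the members, of each list the 2 highest and the lowest gene, and the 5 genes nearest in profile, except items not reported here. Alternatives were DESeq2 1.42.0 size factors, other units, thresholds, the second tables and leaving out each library.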

Additional observations from a re-analysis of the deposited data

How the results depend on the processing

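All values below are medians over the hosts or counts of them. The count at 1 TPM or more stayed at 10 in the second tables and was 7 at 10 TPM. Accepting any value above 0 or leaving out a library could not lower it. The median level of 14.6 TPM was 17.5 in the second tables and 10.2 as CPM without length scaling, and ranged from 14.4 to 15.4 on leaving out a library. The median SD of 0.31 stayed within 0.27 to 0.31 with DESeq2 size factors, library totals, a prior count of 0.5, no filter and the second tables, but was 0.12 on log2(TPM + 1) and 0.13 on log2(TPM + 0.1), scales on which the median over genes is lower in replicate 2, and 0.12 to 0.37 on leaving out a library, lowest without replicate 2. The median share of the leading isoform, 42.0%, was 35.8% in the second tables, 57.0% by expected counts and 38.3 to 41.1% on leaving out a library. The median share of retained-intron isoforms over all 10 hosts, 57.7%, was 45.1% and 73.6% in the second tables and by expected counts, and 56.0 to 59.5% on leaving out a library. For isoforms with a snoRNA in an exon, 67.3%, these were 59.2%, 83.4% and 66.1 to 68.2%. The count of 9 hosts highest in replicate 2 was 2 on TPM as deposited. This count, its alternatives and the snoRNA-in-exon share were chosen after seeing the data. Of single hosts, the level moved by more than 1 SD in the second tables for 9 of 10 and without any 1 library for 0. The spread used for the SD results was the SD of the values without each library. No paired analysis was possible because there is 1 group. Counts limit Snhg3 most, followed by Snhg6 and Snhg15.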
